A study of Mus musculus with 3 samples.

Results

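The 4 probes described here, on a mouse serum miRNA panel, are miR-223, miR-142-3p, miR-142-5p and miR-146a, the miRNAs usually read as markers of myeloid cells. They were chosen by probe name after removal of the species prefix, and all 4 were found among the 566 probes of the panel. The serum came from female BALB/c mice, bought at 6 to 8 weeks of age, that carried mammary tumours of 4T1, a mouse cell line used as a model of triple-negative breast cancer. Tumours were grown from 100000 cells placed in a mammary fat pad, and the mice were killed on day 28. In the Tn+ group the tumour cells were a 4T1/Tn+ line made with CRISPR/Cas9 and a guide against Cosmc (spelled Ccosmc in the labels), the chaperone needed to extend O-glycans, so that the truncated glycan Tn stays exposed. The Tn- group carried tumours without Tn, and the labels name no control guide for it. Both groups therefore carried tumours, and serum of tumour-free mice was not analysed here. Serum was pooled by Tn status before RNA extraction, which gave 2 Tn+ pools and 1 Tn- pool. The labels do not say how many mice each pool holds, whether separate mice went into each Tn+ pool or how many clones the Tn+ line holds.

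The miRNAs of the set are made mainly by blood cells. miR-223 is abundant in neutrophils, monocytes and platelets, and in mice it restrains the production and activity of neutrophils. miR-142 is made in nearly all blood cell lineages, lymphocytes included, so that neither of its arms is particular to myeloid cells. Its hairpin gives a mature miRNA from each arm, 5p and 3p, and each arm has its own seed and its own targets. miR-146a is induced by NF-kB and damps innate signalling by targeting Traf6 and Irak1. In serum such miRNAs are carried by vesicles, proteins and remnants of blood cells, and a change in the number of cells that release a miRNA cannot be told apart from a change in the amount released per cell.

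The mature sequences show which probes could be read as a family and how the miR-142 arms relate to each other. They are those of RefSeq (GRCm38.p6), 5′ to 3′, with the seed (bases 2 to 8) in capitals. The panel gives no arm for miR-223 and miR-146a, and their miRBase accessions in the table are those of the 3p and the 5p arm. The miR-142 probes correspond to the RefSeq names miR-142a-3p and miR-142a-5p.
miR-223 (chrX:96242884-96242905, plus strand): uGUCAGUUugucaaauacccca
miR-142-3p (chr11:87756903-87756925, plus strand): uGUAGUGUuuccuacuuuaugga
miR-142-5p (chr11:87756867-87756887, plus strand): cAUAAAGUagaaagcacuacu
miR-146a (chr11:43374435-43374456, minus strand): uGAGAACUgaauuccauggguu
miR-146b (chr19:46342790-46342811, plus strand): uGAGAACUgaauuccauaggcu

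The seeds of miR-223, miR-142-3p and miR-142-5p are shared by 0 other mature mouse miRNAs of the RefSeq table. The seed of miR-146a is shared by 1, miR-146b, which has a probe of its own and is identical to miR-146a at 20 of 22 positions. All 4 members are richer in A and U (59.1% to 66.7% of bases) than the median of 47.8% over 1674 mature mouse sequences, and the miR-142 arms are the richest of the set. Both miR-142 arms lie in a hairpin of 64 bases at chr11:87756864-87756927 on the plus strand, shown next with the 5p arm and then the 3p arm in capitals.
miR-142 hairpin: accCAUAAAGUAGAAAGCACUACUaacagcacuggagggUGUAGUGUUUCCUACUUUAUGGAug
When the hairpin was folded with RNAfold, 19 of the 21 bases of the 5p arm paired with bases of the 3p arm. RefSeq also places a gene on the opposite strand, Mir142b, whose mature miRNA of 20 bases is complementary to the 3p arm over all 20. It has no probe of its own name on the panel. In the RefSeq gene table Mir223 overlaps F630028O10Rik, Mir142 overlaps Mir142b with Tspoap1 as its nearest neighbour, and Mir146 (miR-146a) overlaps no other gene, with Gm5782 nearest.

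The values are normalized signals in the authors' units, with a lowest value (the floor) of 1 and 1.09 units in the Tn+ pools against 1.08 units in the Tn- pool. The pools differed widely in total, with 59444 and 31977 units in the Tn+ pools against 4204 units in the Tn- pool, and 228 and 150 probes lay above the floor in the Tn+ pools against 85 in the Tn- pool. Low values lay on a regular grid with a step of 0.895 and 1.09 units in the Tn+ pools, against 1.08 units in the Tn- pool, so a value of a few units is a few steps. The red cell miRNA miR-451 alone had 43043 and 13159 units in the Tn+ pools against 1856 units in the Tn- pool, and shares are therefore also given without it. P-values rest on 1 residual degree of freedom, which is the spread between the 2 Tn+ pools and may be technical. The single Tn- pool adds no spread. limma moderates the spread of a probe with that of all probes fitted (1.39 prior degrees of freedom for the 566 probes as deposited). An exact permutation of 2 pools against 1 cannot go below p = 0.333, so no such test is given.

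miR-223 had the highest signal of the set in both Tn+ pools but not in the Tn- pool. It had 719 and 225 units in the Tn+ pools, against 136 units in the Tn- pool. Both Tn+ pools were above the Tn- pool, by 5.28-fold and 1.65-fold, yet they differed from each other by 3.20-fold. The mean of 472 ± 349 units in Tn+ serum (SD, n = 2) thus has an SD larger than its distance from the Tn- value. The fitted log2 ratio of Tn+ over Tn- serum on log2(signal + 1) was 1.55 (SE 0.95, limma adjusted p = 0.895), and it turned negative under all 4 rescalings of the pools described further on.

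miR-142-5p was nearly level across the pools. Its signal was 124 and 201 units in the Tn+ pools, against 150 units in the Tn- pool, so that the Tn- value lay between the Tn+ values. The mean in Tn+ serum was 163 ± 54.1 units (SD, n = 2), and the log2 ratio was 0.07 (SE 0.41, limma adjusted p = 0.895), also negative under all 4 rescalings. If 1 grid step is 1 barcode count, counting alone gives an SD of at least 10.6 and 14.8 units in the Tn+ pools, against 12.7 units in the Tn- pool. The 60 probes with signal over the floor in every pool (the shared probes) fell into 43 (71.7%) with both Tn+ values above the Tn- value, 4 (6.67%) with both below it, and 13 (21.7%) with the Tn- value in between, miR-142-5p among these. In signal order it was the 24th and 11th probe of the Tn+ pools, against the 4th of the Tn- pool. miR-223 was the 7th and 9th probe of the Tn+ pools, against the 5th of the Tn- pool.

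miR-142-3p, from the other arm of the same hairpin, was low in Tn+ serum and at the floor in Tn- serum. It had 33.9 and 14.8 units in the Tn+ pools, while the Tn- pool was at its floor of 1.08 units. The Tn+ pools were 10.5-fold and 4.57-fold above 3 grid steps of the Tn- pool (3.23 units). That ratio is no lower limit, because the error of the background that was subtracted is unknown. The log2 ratio was 3.50 (SE 0.66, limma unadjusted p = 0.0228, adjusted p = 0.305), and it was positive under every scaling tried, with 0.88 to 2.29 after rescaling. The rescalings divided the Tn- floor value of 1.08 units by the factor of its pool, like every other value. They were not combined with the floor at 3 grid steps. The sign after rescaling thus rests on that floor value. A total of 66 probes (11.7% of 566) were above the floor in both Tn+ pools and at the floor in the Tn- pool, as miR-142-3p and miR-146a were.

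**Figure D1:**
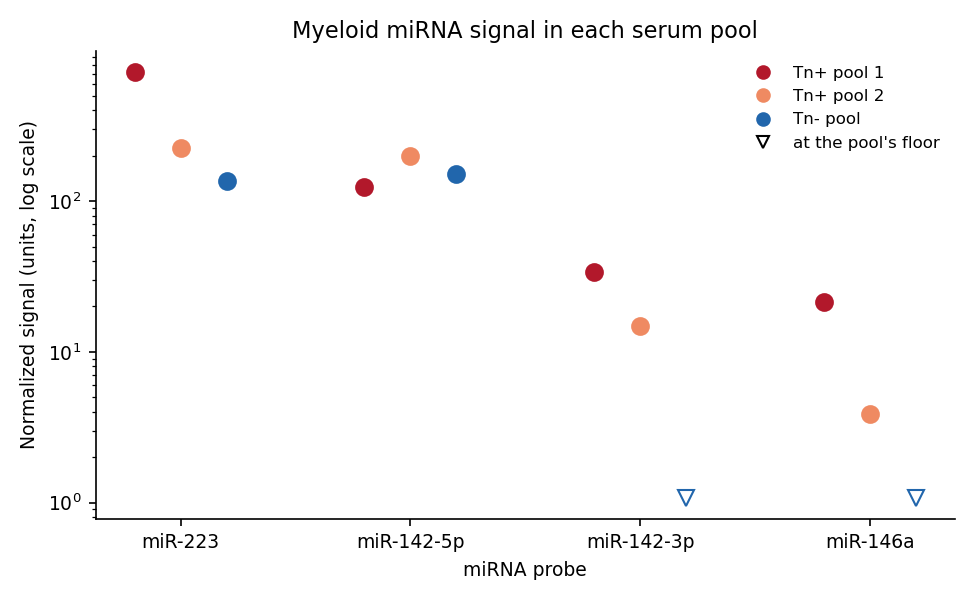
Normalized signal of the 4 probes on a log axis, each point being 1 of the 2 Tn+ pools or the Tn- pool. Open triangles mark values at the floor of the pool. miR-223 and miR-142-5p lie above 100 units in every pool, while miR-142-3p and miR-146a lie at the floor in the Tn- pool.

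The miR-142 arms were also set against each other within each pool. Where both arms are above the floor, such a ratio does not depend on how the pools were scaled. This held for the Tn+ pools only. In the Tn- pool the 3p arm was at the floor, so the ratio there depends on that floor and on the scale of the pool. The probes may differ in efficiency, so the ratio is no ratio of molecules, and only its change between pools can be read. The 5p signal was 3.67-fold and 13.6-fold the 3p signal in the Tn+ pools. In the Tn- pool it was 139-fold with the 3p arm at its floor value, or 46.5-fold with the 3p arm set to 3 grid steps. The 3p arm thus had its largest part next to the 5p arm in Tn+ pool 1 and its smallest in the Tn- pool, where it was at the floor.

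On the log2 scale the 3p over 5p ratio was -1.87 and -3.77 in the Tn+ pools, a mean of -2.82 ± 1.34 (SD, n = 2), against -7.12 in the Tn- pool. The difference was 4.30 as deposited and 2.72 with the floor at 3 grid steps. It depended strongly on the unknown background: with 10 and 20 units added to both arms it was 1.50 and 0.97, and the Tn- pool still had the lowest ratio of the 3. With 20 units added, the distance of Tn+ pool 2 from the Tn- pool (-2.67 against -3.01) was smaller than that between the Tn+ pools (-1.42 and -2.67). The ratio in the Tn- pool rests on a single pool and has no replicate.

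**Figure D2:**
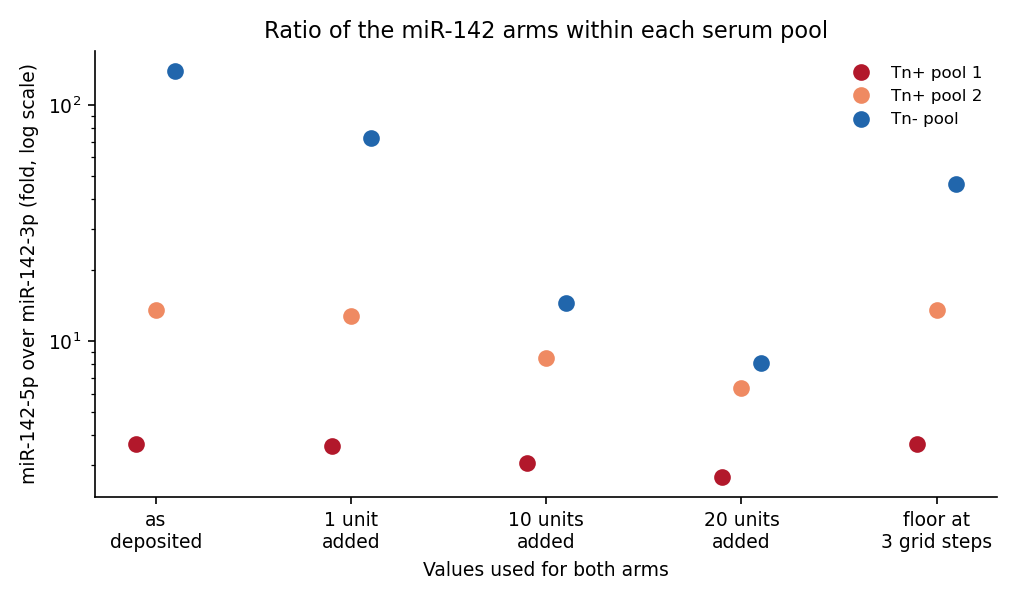
Fold of miR-142-5p over miR-142-3p signal within each pool, on a log axis, for the values as deposited, with a constant added to both arms, and with floor values at 3 grid steps. Each point is 1 pool, and the Tn- pool is highest in every column, from 139-fold as deposited to 8.08-fold with 20 units added.

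Other hairpins give little to compare with. Among 65 hairpins with a 5p and a 3p probe on the panel, miR-142 included, 0 had signal above the floor for both arms in every pool. In 15, miR-142 among them, each arm was above the floor in some pool, not always in the same pool. Among these 15, miR-342, a miRNA of lymphocytes, was picked after its values were seen as another hairpin whose arms moved apart. Its 3p arm had 100 and 10.4 units in the Tn+ pools, against a floor value in the Tn- pool. The 5p arm lay at the floor and at 7.14 units in the Tn+ pools, against 4.81 units in the Tn- pool. miR-126, of endothelium and platelets, had a 3p arm of 42.9 and 35.4 units and a 5p arm of 5.26 and 1.70 units in the Tn+ pools, against floor values for both arms in the Tn- pool.

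miR-146a was the weakest member. It had 21.4 and 3.88 units in the Tn+ pools, against the floor of 1.08 units in the Tn- pool. The Tn+ pools differed by 5.51-fold, and they were 6.61-fold and 1.20-fold above 3 grid steps of the Tn- pool, so that Tn+ pool 2 was within 1 grid step of that limit. The log2 ratio was 2.33 (SE 1.24, limma adjusted p = 0.895), and it was -0.21 once the pools were brought to equal totals. miR-146b, which has the same seed, had 5.26 units in Tn+ pool 1 and only floor values in Tn+ pool 2 and the Tn- pool. Whether the miR-146a and miR-146b probes share signal was not tested.

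The members together took a smaller share of the signal in Tn+ serum than in Tn- serum. They held 1.51% and 1.39% of the signal in the Tn+ pools, against 6.87% in the Tn- pool. Without miR-451 in the total they held 5.48% and 2.36% in the Tn+ pools, against 12.3% in the Tn- pool. In both accounts the Tn+ pools lay below the Tn- pool.

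Nearly all of this share belonged to miR-223 and miR-142-5p. miR-223 took 1.21% and 0.703% of the signal in the Tn+ pools, against 3.24% in the Tn- pool. miR-142-5p took 0.209% and 0.628% in the Tn+ pools, against 3.57% in the Tn- pool. A lower share in each Tn+ pool was found for 40 of the 60 shared probes (66.7%), so these 2 members did what most such probes did. miR-142-3p took 0.0570% and 0.0462% in the Tn+ pools, against 0.0257% for a floor value in the Tn- pool. Its share there with the floor at 3 grid steps was not computed, so the direction for miR-142-3p is not settled. miR-146a took 0.0359% and 0.0121% in the Tn+ pools, on either side of that floor share.

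The make-up of the set also differed between the pools. miR-223 made up 80.0% and 50.6% of the members' summed signal in the Tn+ pools, against 47.2% in the Tn- pool. miR-142-5p made up 13.8% and 45.2% in the Tn+ pools, against 52.1% in the Tn- pool. Put as a ratio, miR-223 was 5.78-fold and 1.12-fold miR-142-5p in the Tn+ pools, against 0.907-fold in the Tn- pool. Tn+ pool 2 was thus nearer to the Tn- pool than to Tn+ pool 1 by this ratio.

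**Figure D3:**
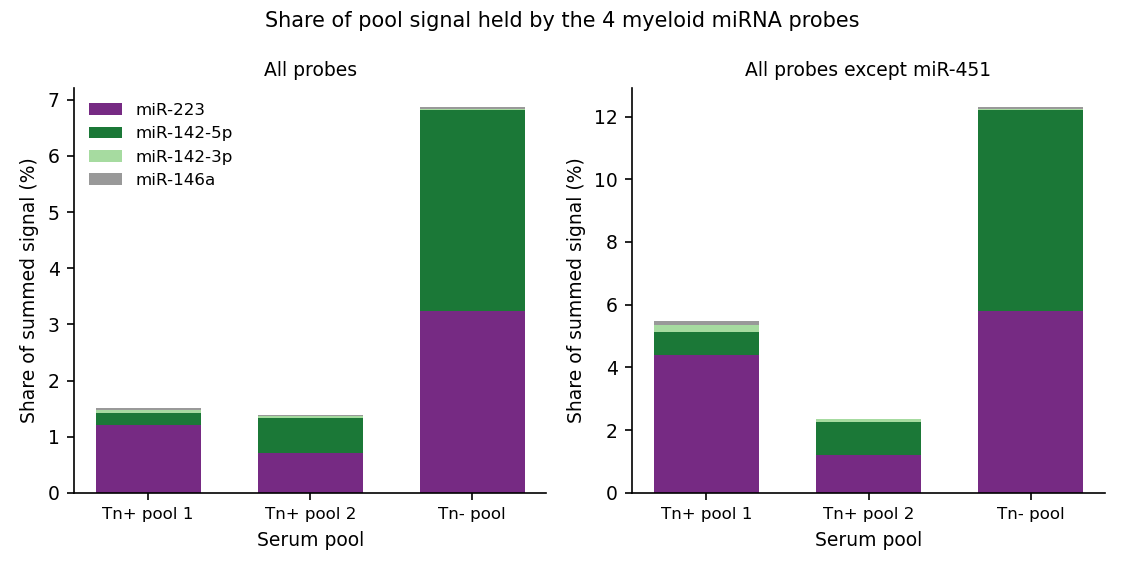
Share of the summed signal of each pool held by the 4 probes, as stacked bars in percent, over all 566 probes (left) and over all probes except miR-451 (right). On the left the Tn+ bars reach 1.51% and 1.39%, against 6.87% for the Tn- pool, and on the right 5.48% and 2.36%, against 12.3%.

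Red cell miRNAs also differed between the pools, and their part in the members' values was not tested. The 3 red cell probes (miR-451, miR-486 and miR-144, all above the floor in some pool) summed to 75.0% and 48.8% of the signal in the Tn+ pools, against 46.5% in the Tn- pool. Set against miR-451 within each pool, miR-223 was at 1.67% and 1.71% of its signal in the Tn+ pools, against 7.34% in the Tn- pool. The Tn+ pools were alike in this ratio but not in those to other miRNAs of red cells. Against miR-486, which had 1058 and 2268 units in the Tn+ pools and 98.6 units in the Tn- pool, miR-223 was at 67.9% and 9.91% in the Tn+ pools, against 138% in the Tn- pool. Against miR-16 it was at 27.5% and 14.9% in the Tn+ pools, against 77.4% in the Tn- pool. All 3 ratios were lower in both Tn+ pools than in the Tn- pool.

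The same ratio for miR-142-5p was 0.289% and 1.53% in the Tn+ pools, against 8.10% in the Tn- pool. miR-142-3p was at 0.0788% and 0.112% of miR-451 in the Tn+ pools, against 0.0582% for its floor value in the Tn- pool. Because that value is a floor, the direction for miR-142-3p is not settled. Against miR-150, a lymphocyte miRNA, miR-223 was at 226% and 179% in the Tn+ pools, against 563% in the Tn- pool, while miR-142-5p was at 39.1% and 160% in the Tn+ pools, against 621% in the Tn- pool. These ratios were chosen after the values were seen, and they have no replicate on the Tn- side.

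The direction of the members depended on how the pools were made comparable. The median-of-ratios scaling, taken on the 60 shared probes, removed a 3.18-fold excess of Tn+ over Tn- serum, scaling by the 100 highest probes removed 6.06-fold, equal totals without miR-451 removed 7.48-fold and equal totals removed 10.4-fold. In that order the log2 ratio of miR-223 was -0.11, -1.03, -1.34 and -1.81. That of miR-142-5p was -1.59, -2.51, -2.82 and -3.28, the lowest of the set under each of them. miR-142-3p had the highest ratio of the set throughout, with 2.29, 1.54, 1.29 and 0.88, and miR-146a had 1.18, 0.44, 0.23 and -0.21. The order of the members (miR-142-3p, miR-146a, miR-223, miR-142-5p) was the same under each of the 4 rescalings and as deposited. This was nearly fixed in advance, because a rescaling divides all probes of a pool by the same factor. The order is therefore no further support for a difference between members. With floor values at 3 grid steps miR-223 came before miR-146a (1.55 and 1.30), as it did with a pseudocount of 5 (1.53 and 1.33).

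**Figure D4:**
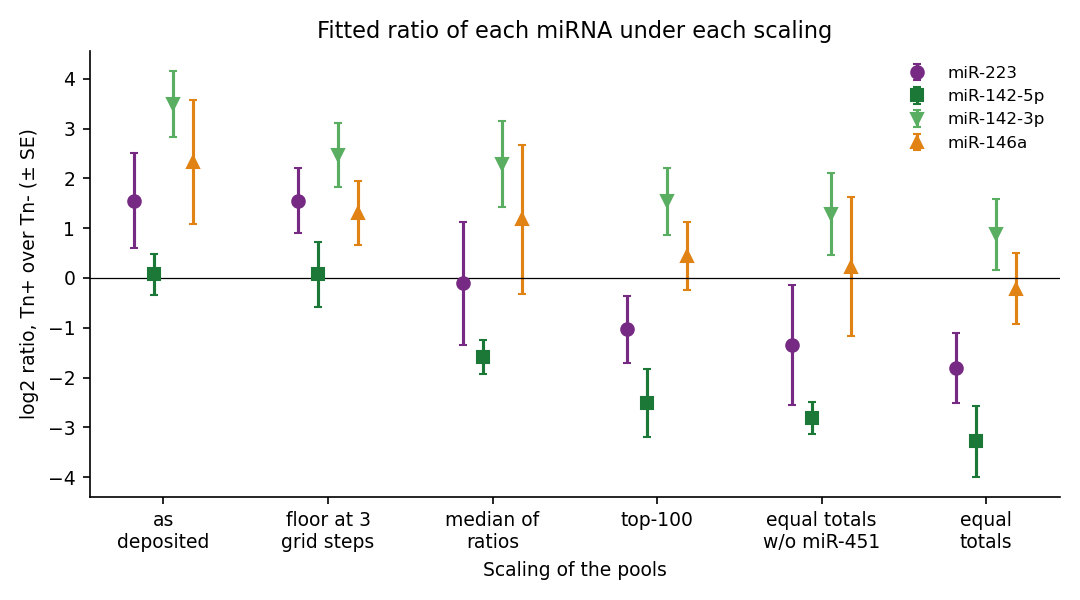
Fitted log2 ratio of Tn+ over Tn- serum for each member, with its SE as the error bar, for the deposited scale, with floor values at 3 grid steps, and after 4 rescalings. miR-142-3p lies above 0 in every column, and miR-142-5p lies at 0.07 in the first 2 columns and between -1.59 and -3.28 in the others. The 4 rescalings start from the deposited floor values of miR-142-3p and miR-146a in the Tn- pool and divide them like all other values.

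Across the whole panel the limma fit on the deposited scale called 0 of 566 probes (0%) at an adjusted p under 0.05, members included. At an unadjusted p under 0.05 there were 63 probes (11.1%), and 1 of the 4 members, miR-142-3p, was among them. By a rule of size, that each Tn+ pool exceed the Tn- pool by 2-fold or more on signal + 1, there were 68 probes (12.0%), and 2 of the 4 members, miR-142-3p and miR-146a, met it. For miR-146a this rests on the deposited floor value of the Tn- pool. Its value in Tn+ pool 2 was only 1.20-fold above 3 grid steps of the Tn- pool. The opposite rule, 2-fold or more below the Tn- pool in each, was met by 4 probes (0.707%), 0 of them members. The median log2 ratio of the members was 1.94, beside -0.02 over all 566 probes, 0.71 over the 259 above the floor in some pool and 1.47 over the 60 above it in all pools. Fits restricted to the 259 probes, or to 58 probes whose mean reached 10 units, called 29 (11.2%) and 32 (55.2%). miR-142-3p was the only member among them, but it entered both sets only through its Tn+ values, so that its calls there are no support for a difference. With floor values at 3 grid steps the fit called 43 of 566 (7.60%), with miR-142-3p (limma adjusted p = 0.00246) as the only member. Each of these 3 fits gave every probe the same SE (1.15, 1.34 and 0.65), so that a probe's own spread was not used.

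**Figure D5:**
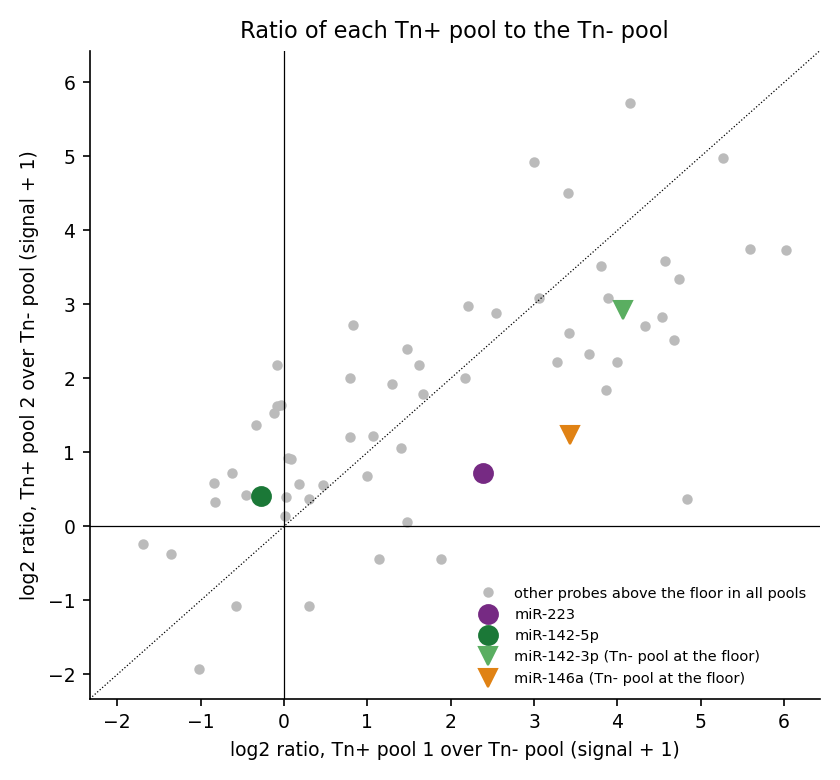
Log2 ratio (signal + 1) of Tn+ pool 1 over the Tn- pool (horizontal) against that of Tn+ pool 2 over the Tn- pool (vertical), for the 60 shared probes and for miR-142-3p and miR-146a, whose Tn- value is at the floor. Both axes share the Tn- pool, and the dotted line marks equal ratios. miR-142-5p lies near 0 on both axes (-0.27 and 0.42), and the other 3 members lie below the dotted line.

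The probes whose pair of ratios came nearest to a member's, among those with signal over the floor in every pool, differed between the members, except that miR-466j was near both miR-223 and miR-146a. For miR-142-5p they were miR-384-3p, let-7f and miR-878-5p, at distances of 0.18, 0.30 and 0.40 on the log2 scale. Of these miR-384-3p had only 1.67 and 3.88 units in the Tn+ pools against 2.65 units in the Tn- pool. let-7f had 31.2 and 40.9 units in the Tn+ pools against 30.7 units in the Tn- pool, and miR-878-5p had 12.4 and 13.7 units against 12.4 units. For miR-142-3p they were miR-16 (0.25), miR-19a (0.33) and miR-451 (0.48), of which miR-16 and miR-451 are abundant in red cells. The arms of miR-142 thus had different nearest probes. This follows from the ratios of the arms themselves, by which the probes were picked, and is no further support for a difference between the arms.

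For miR-223 the nearest probe was miR-466j, at 0.04, with only 18.7 and 4.97 units in the Tn+ pools against 2.65 units in the Tn- pool. The next, miR-19b and miR-709, were at 1.05 and 1.13. For miR-146a they were miR-30c (0.75), miR-130a (1.01) and miR-466j (1.12). These distances rest on 3 pools and, for miR-142-3p and miR-146a, on a floor value.

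Of 8 further miRNAs linked to innate immune responses, 5 were above the floor in some pool and miR-155, miR-147 and miR-9 were at the floor in every pool. miR-155, which promotes inflammatory signalling where miR-146a restrains it, thus had no signal above the floor in any pool. Because depth and background are unknown, this does not show that it was absent. The rule of 2-fold or more above the Tn- pool was met by 3 of the 8, miR-21, miR-125b-5p and miR-125a-5p, and the opposite rule by 0, beside 68 (12.0%) and 4 (0.707%) of all 566 probes. Of the 8, 0 passed the limma fit at an adjusted p under 0.05, and 2 had an unadjusted p under 0.05, beside 63 (11.1%) of all probes. miR-21, the strongest of them and made by many cell types, had 182 and 149 units in the Tn+ pools against 3.73 units in the Tn- pool. miR-125b-5p had 6.15 and 42.0 units in the Tn+ pools, and miR-132 had 14.2 units and the floor, both against the floor in the Tn- pool. The median log2 ratio of the 8 was 1.05, beside -0.02 over all 566 probes, and that of the 5 above the floor was 1.44, beside 0.71 over the 259 such probes.

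Markers of other blood and tissue cells were present too, and their part in the members' values was not tested. Of 4 lymphocyte probes all were above the floor in some pool, and together they took 0.708% and 0.460% of the signal in the Tn+ pools, against 0.741% in the Tn- pool. The 3 probes of platelets and endothelium, all above the floor in some pool, summed to 71.3 and 51.9 units in the Tn+ pools, against floor values for all 3 in the Tn- pool. Platelets also carry miR-223, which had 719 and 225 units in the Tn+ pools, against 136 units in the Tn- pool. The part of platelets in its signal was not tested. miR-122 of hepatocytes had 47.3 and 22.4 units in the Tn+ pools, against a floor value in the Tn- pool.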

How the data were processed

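The nCounter Mouse v1.5 panel of NanoString counts barcodes bound to each miRNA. Per the labels' protocols, RNA of 200 µL of serum was taken up in 20 µL, and hybridization of about 30 ng took 16.5 h. Values are deposited as normalized signal, made by the authors with nCounter Advanced Analysis according to the design text, and the submitters' processing notes list R 4.4. How background was removed, which probes set the scale and how the floor arose is not given in the sources used here. A second deposited table held the same signal in 1698 of 1698 values. All values up to 60 units above the floor lay within 0.05 steps of a regular grid, which whole counts times a factor, less a background, would give. Since the background is unknown, counts and depth are unknown too.

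Pools were grouped by their titles. Log2(signal + 1) of all 566 probes was fitted with limma 3.58.1 in R 4.3.3 (lmFit, eBayes, no covariate), with Benjamini-Hochberg adjustment. The fit takes the spread of the Tn- pool to equal that of the Tn+ pools, and folds on this scale understate changes of low probes. The script was tested on simulated data. Alternatives were other pseudocounts, filters, floors and scalings, and leaving out a Tn+ pool. Arm ratios, shares and distances (Euclidean, over the 2 log2 ratios) are descriptions. Named miRNAs were the members, probes of the fixed lists, seed mates and the 3 nearest probes of each member. The members and lists were chosen with earlier results of these data known. Sequences came from RefSeq (GRCm38.p6), and the hairpin was folded with RNAfold 2.7.2. Python 3.11.15, numpy 2.4.6, pandas 2.3.3 and matplotlib 3.10.9 were used otherwise.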

Additional observations from a re-analysis of the deposited data

How the results depend on the processing

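The Tn- side rests on a single pool, and the depth behind each value is unknown. Pseudocounts of 0.5 and 5 and the second table left the direction and the call of every member as they were. Under the median-of-ratios, top-100, equal-total without miR-451 and equal-total scalings, miR-223 turned to -0.11, -1.03, -1.34 and -1.81 (log2), miR-142-5p to -1.59, -2.51, -2.82 and -3.28, and miR-146a to -0.21 with equal totals alone. These changes follow from the excess that each rescaling took from all ratios (1.67, 2.60, 2.90 and 3.37 log2 units, less for low values because of the pseudocount). The cause of the excess was not tested. The rescalings were run on the deposited floor values only. Leaving out a Tn+ pool gave miR-142-5p ratios of -0.27 to 0.42. As lower in Tn+ serum, miR-142-5p passed the threshold after top-100, equal-total without miR-451 and equal-total scaling (limma adjusted p = 0.00619, 0.0277 and 0.000161), and miR-223 with equal totals (0.0151). miR-142-3p (3.50) passed as higher after raising floor values to 3 steps (2.47) and after top-100 scaling (1.54), with limma adjusted p = 0.00246 and 0.0365. It also passed in the fits to the 259 probes above the floor in some pool and the 58 with a mean of 10 or more (0.0258 and 0.0267), which it entered only through its Tn+ values. Top-100, equal-total without miR-451 and equal-total scaling each called most of the 566 probes, nearly all of them as lower. A call as lower after these scalings is therefore not particular to miR-142-5p or miR-223. The fits with either filter, 3-step floors, top-100 scaling or equal totals gave every probe the same SE. Over all fits of miR-142-3p the adjusted p lay between 0.00246 and 0.866.

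The fits called 29 and 32 probes with these filters and 336, 369, 390 and 463 after scaling by median of ratios, by the top 100 probes, to equal totals without miR-451 and to equal totals, 307 of them each time probes at the floor in every pool, whose floor values the rescaling moved apart. Of these scalings, median of ratios, top 100 and equal totals on the 58 probes, added after seeing the data, called 0 in limma (9, 7 and 10 at an unadjusted p under 0.05). Probes at least 2-fold apart in both Tn+ pools numbered 72 (68 higher, 4 lower), 44 with a pseudocount of 5 and 466 with equal totals (10 higher, 456 lower). Median-of-ratios scaling gave 61 (33 higher, 28 lower), and floor values at 3 grid steps gave 48 (47 higher, 1 lower). The share of Tn+ minus Tn- serum, in percentage points, was -2.29 for miR-223, and -3.02 without miR-451 or -2.73 with floor values at 0. In that order it was -3.16, -5.49 and -3.65 for miR-142-5p, 0.0259, 0.0966 and 0.0521 for miR-142-3p, and -0.00165, 0.0295 and 0.0242 for miR-146a, which spanned -0.0136 to 0.0103 when a Tn+ pool was left out. For miR-142-3p and miR-146a the Tn- value was at the floor, so floor values at 0 could only raise this difference. Floor values at 3 grid steps were not tried for the shares. The miR-142 arm difference of 4.30 was 3.42, 1.50 and 0.97 with 1, 10 and 20 units added, 2.72 with floor values at 3 grid steps, and 3.35 to 5.25 when a Tn+ pool was left out. No paired analysis was possible because there was a single Tn- pool and the labels give no pairing between the groups.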
